A study of Homo sapiens with 4 samples.

Results

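The heat shock proteins and DNAJ chaperones were examined in human proximal tubular cells (HPTCs) stimulated with interleukin-1β (IL-1β) together with empagliflozin (Empa). Members were all probes whose gene name on the array design begins with HSP90, or with DNAJA, DNAJB or DNAJC and a number. So were those whose name begins with HSPA, HSPB, HSPD, HSPE or HSPH, an optional letter as in HSPBP1, and a number. The members were 108 of 34127 probes and carry 79 of 25992 gene names. The rule used names and no measured value, but earlier results of these data were known when it was chosen.

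HK-2 is a human proximal tubular line immortalised with papillomavirus E6 and E7 genes and was grown in keratinocyte serum-free medium. RPTEC/TERT1 is a human proximal tubular line that the telomerase reverse transcriptase immortalised and was grown in DMEM and Ham's F-12. Each is a single line in its own medium, so line and medium cannot be told apart. Both lines were starved for 24 h and then were kept for 24 h in IL-1β at 10 ng/mL with 500 nM Empa, and each has replicates 1 and 2, so 4 arrays in all. Empa inhibits the renal sodium-glucose cotransporter SGLT2, and IL-1β is an inflammatory cytokine. Cells without Empa or without IL-1β were not analysed here, so the levels below describe the combined stimulation and no response to either agent.

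Chaperones bind unfolded or partly folded proteins and keep them from aggregating. HSP70 proteins bind and release short stretches of a client in a cycle driven by ATP, J-domain (DNAJ) proteins bring clients and start ATP hydrolysis, and exchange factors and HSP110 proteins restart the cycle. HSP90 acts later, on nearly folded clients such as kinases and steroid receptors, the chaperonins enclose clients in a barrel, and small HSPs hold them without ATP. Each compartment has its own set. Heat shock factor HSF1 drives many of the cytosolic and mitochondrial genes, and the unfolded protein response drives those of the endoplasmic reticulum (ER). Proximal tubular cells carry a high load of mitochondrial, secretory and endocytic protein and are known to raise chaperones after ischaemic or toxic injury.

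These regulatory routes can be read in the promoters of some members, which are printed here because their genes recur in the results. RefSeq promoters (GRCh38.p14, 250 bases before the start) were found for 65 of 74 member genes that are neither pseudogenes nor antisense. The heat shock element was searched on both strands as GAA, TTC and GAA with 2 free bases between each, and the motif letters are in capitals in the 30-base windows, read 5′ to 3′ along the gene's strand. For all promoters the share is one of promoters. For members it is one of genes with a match in any of their promoters, 86 for the 65 genes, so the units differ. Only these exact letters within the 250 bases were searched, so a gene without a match may hold a variant or more distant element. The heat shock element stood in 155 of 35116 promoters (0.441%), and in those of 6 of the 65 member genes (9.23%), namely HSP90AA1, HSP90AB1, HSPA8, HSPD1, HSPA6 and DNAJB6.
HSP90AA1, chr14:102087111-102087140, minus strand: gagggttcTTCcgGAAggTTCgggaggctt
HSP90AB1, chr6:44247823-44247852, plus strand: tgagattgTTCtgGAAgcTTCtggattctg
HSPA8, chr11:123062170-123062199, minus strand: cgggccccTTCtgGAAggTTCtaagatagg
HSPD1, chr2:197500059-197500088, minus strand: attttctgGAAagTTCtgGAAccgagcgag
HSPA6, chr1:161524458-161524487, plus strand: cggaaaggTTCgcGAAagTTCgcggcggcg
DNAJB6, chr7:157336865-157336894, plus strand: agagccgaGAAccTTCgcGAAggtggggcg
HSP90AB1 and HSPA8 each hold a further match that is not printed. In HSPD1 the letters also match in the other orientation, in a stretch that overlaps the printed match.

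The ER stress element, searched on both strands as CCAAT and CCACG with 9 free bases between, stood in 26 of the 35116 promoters (0.0740%). Among the 65 member genes it was in HSPA5 and HSP90B1 (3.08% of genes, again a different unit), the main ER members of the HSP70 and HSP90 families. HSP90B1 held it at 2 places, which begin 194 and 89 bases before the start.
HSPA5, chr9:125241385-125241414, minus strand: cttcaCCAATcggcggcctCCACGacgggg
HSP90B1, distal, chr12:103930211-103930240, plus strand: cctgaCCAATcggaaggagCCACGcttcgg
HSP90B1, proximal, chr12:103930316-103930345, plus strand: gggtgCGTGGtgcggcgcgATTGGtgggtt
These letters are a description of the promoters, and variant or more distant ER stress elements were not searched either. Whether genes that hold the same element share the order of their levels over the arrays was not tested.

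Levels are log2 of the processed spot intensity over the array's 75th percentile, so 0 is that percentile and 1 unit is a doubling. They were floored at -5.37, and since probes differ in how well they bind, levels were compared between arrays and never between probes. The 75th percentile of the intensity lay between 393 and 748, and 59.2 to 64.9% of spots were well above background on an array. The number of arrays limits the precision. The methods call the replicates biological duplicates.

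The arrays did not follow their labels. Over the chaperone probes tested, the median absolute difference was 0.251 between RPTEC/TERT1 replicate 2 and HK-2 replicate 1 and 0.328 between RPTEC/TERT1 replicate 1 and HK-2 replicate 2. These crossed pairs differ in both label and number. It was 0.638 between the HK-2 arrays and 0.543 between the RPTEC/TERT1 arrays, and 0.656 and 0.552 between arrays of replicate 1 and of replicate 2. Over all probes tested, the crossed pairs differed by 0.226 and 0.321 and arrays of the same label by 0.690 and 0.825. Replicate numbers coincide with scan dates, so number and scan cannot be told apart. Whether labels were exchanged between arrays was not tested, and an exchange would change the meaning of every difference between the labelled lines, HSP90B1 included. All labels below are those of the arrays, and a difference between labelled lines is given together with the value within each replicate number.

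**Figure D1:**
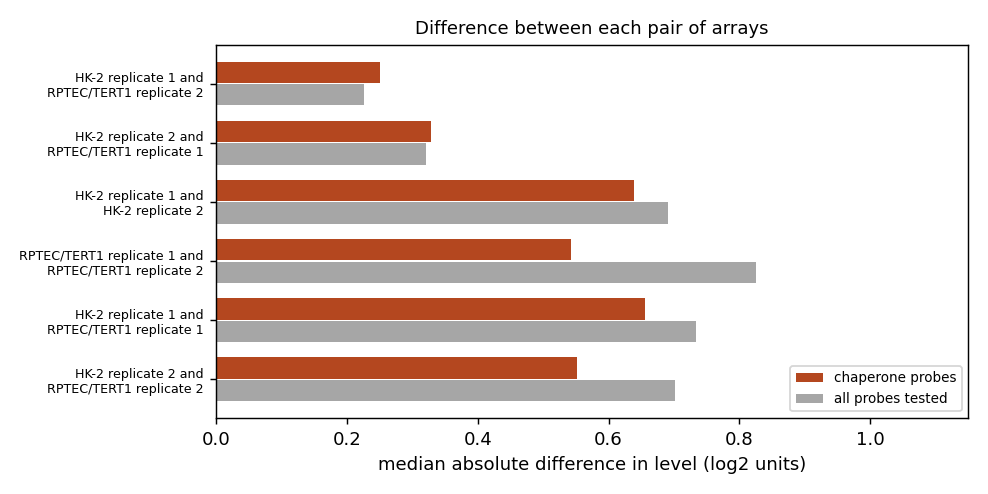
Median absolute difference in level (x axis, log2 units) for each of the 6 pairs of the 4 arrays (y axis), over the chaperone probes tested (red) and all probes tested (grey). The shortest red bars, 0.251 and 0.328, belong to pairs of arrays that differ in both label and replicate number.

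Markers of the labelled tissue were checked on the same arrays. Of 14 proximal tubule markers, 7 were well above background on all arrays, among them LRP2, GGT1, PAX8 and SLC5A2, and CUBN, HNF4A and SLC22A6 on none. Their summed signal, in multiples of the 75th percentile, was 54.5 and 56.7 on RPTEC/TERT1 replicate 2 and HK-2 replicate 1, against 12.3 and 8.29 on RPTEC/TERT1 replicate 1 and HK-2 replicate 2. The sum was carried by the brightest markers. CDH16 alone had levels of 4.83 and -0.55 in HK-2 and -0.55 and 4.97 in RPTEC/TERT1 (replicates 1 and 2). Of 8 proximal tubule probes well above background on all arrays, 4 were highest on the former pair, 2, among them that of LRP2, on the latter, and the others on neither. Of 5 epithelial markers 4 were well above background on all arrays, with sums of 123 and 108 against 46.5 and 49.0 on the same arrays. Fibroblast markers COL3A1 and PDGFRB and the endothelial marker VWF were not well above background on any array. COL1A1 passed on 3 arrays, PECAM1 on 1, CDH5 and CD68 on all, and PTPRC on all by 1 of its 5 probes and on none by 3. Of the thick ascending limb, UMOD passed on all arrays. SLC12A1 by probe A_33_P3282454 had levels of -0.51 on HK-2 replicate 1 and -0.10 on RPTEC/TERT1 replicate 2 and was at the floor on the others. Its other probe and the distal markers AQP2 and SLC12A3 passed on none. The summed tubular and epithelial signals thus separate the same crossed pairs as many chaperone probes below, in either direction, and their part in the chaperone levels was not tested.

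Most chaperone genes were detected. Of the 108 probes, 80 (74.1%) were well above background on all 4 arrays, against 49.7% of all probes. A further 12 passed on 1 to 3 arrays and 16 on none. By gene name, 61 of 79 had a probe well above background on all arrays and 9 had none on any. The latter were DNAJB3, DNAJB7, DNAJB8, DNAJB8-AS1, DNAJC5B, DNAJC5G, HSPA12B, HSPB3 and HSPB7, of which HSPB3 and HSPB7 are muscle small HSPs and DNAJB3, DNAJB8 and DNAJC5G are known mainly from testis. For these probes the arrays give only that no signal well above background was seen.

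Over the 80 probes well above background on all arrays, the range of the level over the 4 arrays had a median of 0.90, from 0.15 for DNAJB14 to 3.30 for DNAJC9, against 1.00 for all such probes. It exceeded 1 for 36 probes (45%), beside a background of 49.8% of 16969 probes. The 2 highest arrays were a crossed pair for 52 of the 80 (65%), beside 71.3% over all such probes. RPTEC/TERT1 replicate 2 and HK-2 replicate 1 were highest for 27 probes (33.8%, background 40.4%), and RPTEC/TERT1 replicate 1 and HK-2 replicate 2 for 25 (31.2%, background 30.9%). These shares lie near those of all probes and are no result about the chaperones. The 2 HK-2 arrays were highest for 5 probes and the 2 RPTEC/TERT1 arrays for 3. With normexp background correction, quantile normalization and the deposited log2 values in turn, 54, 71 and 59 of the 80 had the same highest pair, and 49 had it under all of these.

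**Figure D2:**
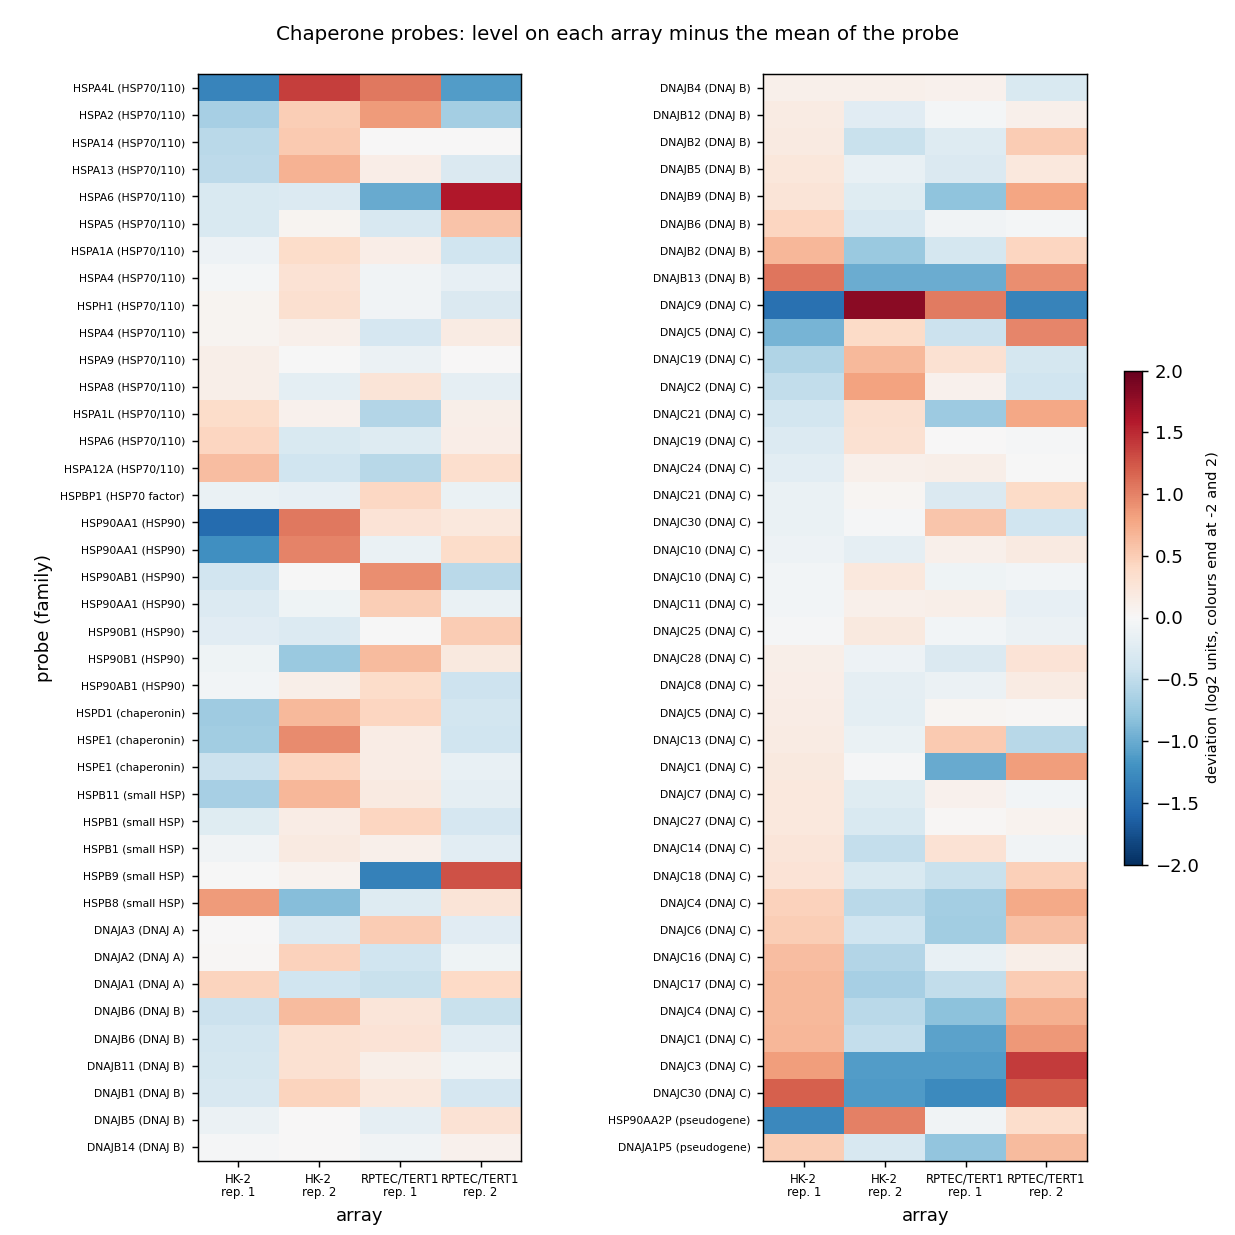
Level of each of the 80 chaperone probes well above background on all arrays (rows, with gene and family) on each array (columns), minus the mean of the probe over the 4 arrays, in log2 units (colour, ending at -2 and 2). The outer and the inner columns tend to share their colour, most clearly for DNAJC9, HSPA4L, DNAJC3 and DNAJC30, while HSP90AA1 is deepest blue on HK-2 replicate 1.

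The cytosolic HSP70 proteins comprise constitutive and heat-inducible forms. HSPA8 is the constitutive form and had levels of 3.92 and 3.61 in HK-2 and 4.06 and 3.63 in RPTEC/TERT1 (replicates 1 and 2, also in what follows). Its range was 0.45, and the arrays of the labelled lines overlapped. HSPA1A, the main inducible form (chr6:31785491-31785550, GRCh37, as all probe positions), had levels of 4.29 and 4.76 in HK-2 and 4.53 and 3.98 in RPTEC/TERT1. RPTEC/TERT1 replicate 1 and HK-2 replicate 2 were highest, over a range of 0.77. HSPA1B lies beside it (chr6:31797870-31797929) and encodes a nearly identical protein, so the transcripts may not be fully told apart by their probes. HSPA1B had levels of 3.47 in HK-2 replicate 1 and of 3.44 and 3.74 in RPTEC/TERT1, and its spot on HK-2 replicate 2 was an outlier and left out.

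HSPA6, a strictly stress-induced HSP70 that mouse lacks, was dim, and its probes did not show the same order. Probe A_23_P114903 (chr1:161577785-161577844) had levels of -4.03 and -3.99 in HK-2 and -4.72 and -2.12 in RPTEC/TERT1. RPTEC/TERT1 replicate 2 stood above the other arrays there. Probe A_33_P3382331 (chr1:161576964-161577023), upstream on the same gene, had levels of -3.26 and -3.98 in HK-2 and -3.93 and -3.55 in RPTEC/TERT1. Its range was 0.73 against 2.60 for the former, so the high value of RPTEC/TERT1 replicate 2 rests on 1 probe.

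HSPA2, best known from germ cells, had levels of -1.20 and -0.06 in HK-2 and 0.32 and -1.22 in RPTEC/TERT1, so the crossed arrays went together over a range of 1.54. HSPA14, which binds ribosomes, had levels of 0.53 and 1.61 in HK-2 and 1.08 and 1.09 in RPTEC/TERT1 and was lowest on HK-2 replicate 1.

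The HSP110 proteins, which act as exchange factors for HSP70, held both stable and variable members. HSPA4L had the second-largest range among the chaperone probes well above background on all arrays, with levels of -2.09 and 0.62 in HK-2 and 0.28 and -1.89 in RPTEC/TERT1 (chr4:128754250-128754309). RPTEC/TERT1 replicate 1 and HK-2 replicate 2 were high and the other arrays low, with 6.55-fold between highest and lowest, and the labelled lines differed by 0.07 ± 1.26 (limma difference ± SE). Its relative HSPA4 had levels of 3.86 and 3.91 in HK-2 and 3.47 and 3.97 in RPTEC/TERT1 by probe A_24_P377269. By probe A_24_P377277 they were 1.54 and 1.87 in HK-2 and 1.52 and 1.42 in RPTEC/TERT1, and only there did the labelled lines not overlap. HSPH1, the inducible HSP110, had levels of 1.87 and 2.13 in HK-2 and 1.73 and 1.52 in RPTEC/TERT1 by probe A_33_P3348752. Its brighter probe A_23_P88119 had levels of 3.52 and 3.43 on the arrays of replicate 1 and was an outlier on those of replicate 2. HSPBP1, another exchange factor, had levels of 2.48 and 2.45 in HK-2 and 3.02 and 2.48 in RPTEC/TERT1, with RPTEC/TERT1 replicate 1 highest.

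HSP90AA1, the inducible cytosolic HSP90, was lowest on HK-2 replicate 1 by all its probes, with an exception after quantile normalization that is given below. Probe A_23_P162874 (chr14:102549453-102549512), spotted 10 times, had levels of 3.36 and 5.58 in HK-2 and 4.44 and 4.95 in RPTEC/TERT1. Its range was 2.22, and the SD among its spots on an array, 0.0570 to 0.182, covers the reading of that array only. Probe A_32_P199252 (chr14:102550163-102550222) had levels of 2.10 and 4.70 in HK-2 and 3.92 and 3.86 in RPTEC/TERT1. HK-2 replicate 1 lay below the other arrays by both.

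Probe A_33_P3665777 (chr14:102547395-102547454) had levels of 6.37 and 6.56 in HK-2 and 7.14 and 6.52 in RPTEC/TERT1, but its spots were saturated on RPTEC/TERT1 replicate 1 and HK-2 replicate 2, which therefore have only a lower bound. The pseudogene HSP90AA2P, a close copy of HSP90AA1 that its transcripts may also bind, had levels of 2.19 and 4.48 in HK-2 and 3.41 and 3.83 in RPTEC/TERT1. All 4 probes of the gene and its copy were lowest on HK-2 replicate 1, except that the saturated probe was lowest on RPTEC/TERT1 replicate 2 after quantile normalization. The labelled lines overlapped by all 4.

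HSP90AB1, the constitutive cytosolic form, differed less. Its levels were 3.63 and 3.79 in HK-2 and 4.04 and 3.26 in RPTEC/TERT1 by probe A_23_P145089, and 1.12 and 1.49 in HK-2 and 2.44 and 0.96 in RPTEC/TERT1 by probe A_24_P823684. RPTEC/TERT1 replicate 1 was highest by both probes.

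Genes named HSPB and a number, HSPB11 among them, were counted as small HSPs by name. They gave 12 probes of 8 genes, and 5 of these probes were well above background on all arrays. HSPB1 (HSP27), which also binds actin, had levels of 5.88 and 6.27 in HK-2 and 6.54 and 5.79 in RPTEC/TERT1 by probe A_33_P3287646, and of -1.20 and -0.95 in HK-2 and -1.02 and -1.34 in RPTEC/TERT1 by probe A_33_P3353242. RPTEC/TERT1 replicate 1 and HK-2 replicate 2 were highest by both, but not by the dimmer probe with normexp or the deposited values. HSPB8, which works with BAG3 in selective autophagy, went the other way, with levels of 0.39 and -1.31 in HK-2 and -0.72 and -0.20 in RPTEC/TERT1. Its highest arrays were RPTEC/TERT1 replicate 2 and HK-2 replicate 1. HSPB9, a testis member, was dim, with levels of -3.91 and -3.83 in HK-2 and -5.25 and -2.63 in RPTEC/TERT1.

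HSPB2, a small HSP of muscle (chr11:111784741-111784800), was well above background on RPTEC/TERT1 replicate 1 and HK-2 replicate 2 only, at levels of -1.10 and -1.41. On RPTEC/TERT1 replicate 2 and HK-2 replicate 1 it was not well above background. The brighter arrays were at least 9.0-fold to at least 14.5-fold higher, each bright array being set against each dim one at the floor or at the dim spot's own signal. CRYAB (αB-crystallin) is the gene next to HSPB2, in the opposite orientation, and was not chosen by the naming rule of the chaperones but listed among the cytosolic co-chaperones. It had levels of 1.95 and 0.22 in HK-2 and 0.34 and 1.86 in RPTEC/TERT1, high where HSPB2 was low. HSPB6 passed on all arrays except RPTEC/TERT1 replicate 1, with levels of -3.35 and -3.96 in HK-2 and -3.40 in RPTEC/TERT1 replicate 2.

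**Figure D3:**
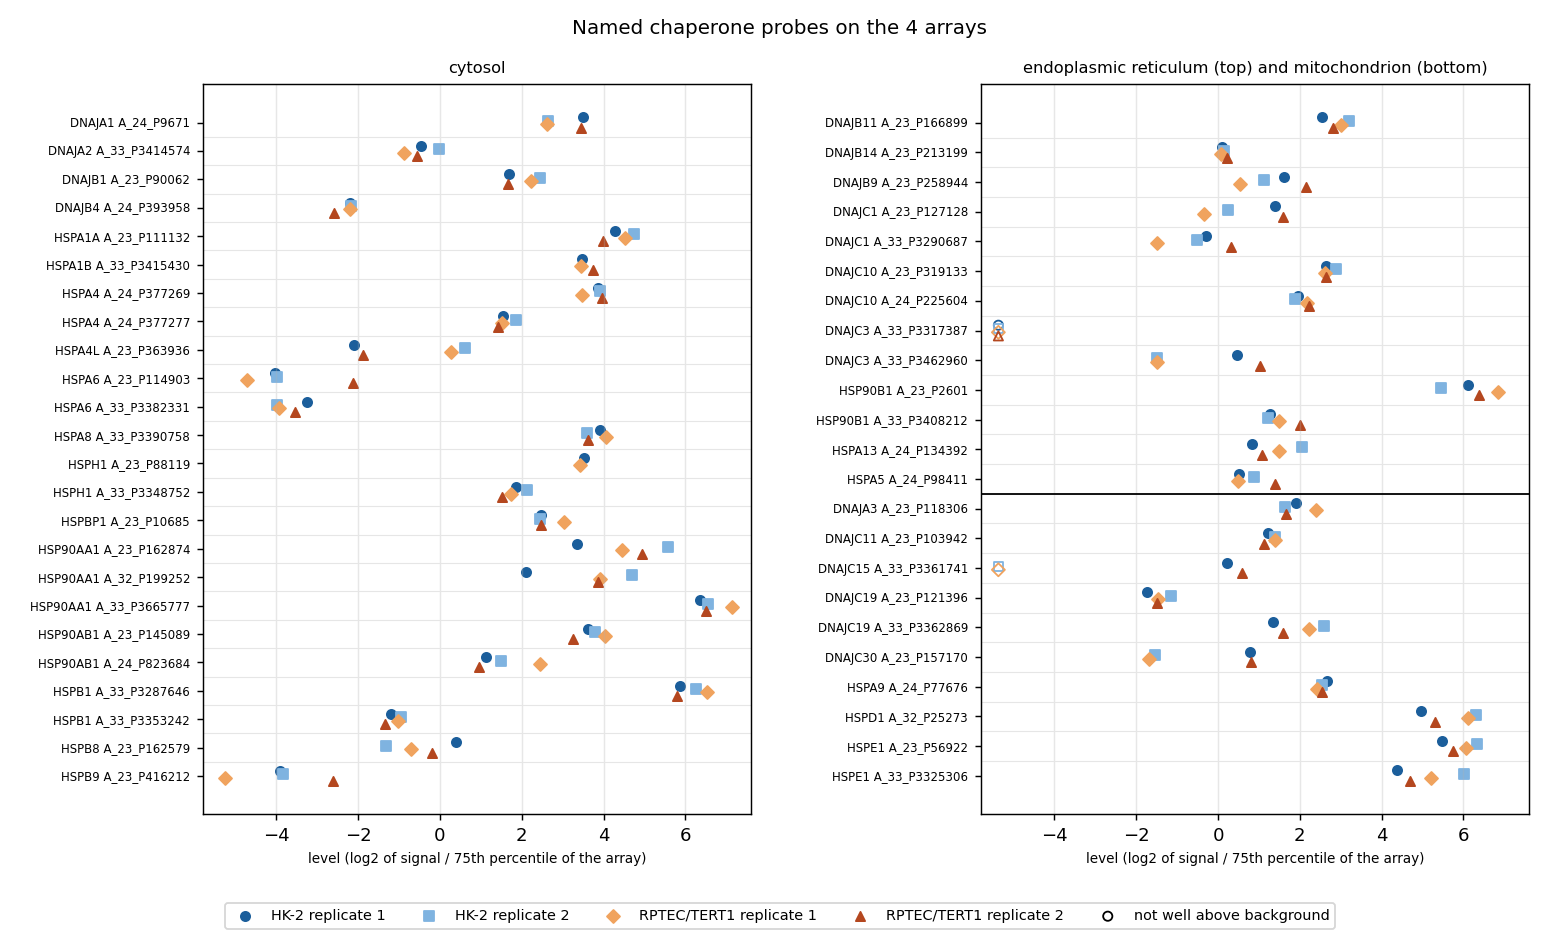
Level (x axis, log2 of the signal over the 75th percentile of the array) of the named probes (y axis) of the cytosol, the ER and the mitochondrion on each of the 4 arrays (marker colour and shape). Open markers are not well above background. For DNAJC3 A_33_P3462960 and DNAJC30 A_23_P157170 the markers fall into the crossed pairs, and for HSPA9 and DNAJB14 they lie within 0.23 and 0.15 of each other.

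The ER members gave 17 probes of 12 genes, 15 of them well above background on all arrays. HSPA5 (BiP), the ER HSP70 and a standard readout of the unfolded protein response (chr9:127997149-127997208), had levels of 0.51 and 0.88 in HK-2 and 0.49 and 1.38 in RPTEC/TERT1. RPTEC/TERT1 replicate 2 was highest and both arrays of replicate 1 were lowest, over a range of 0.90, and the labelled lines overlapped. HSPA13, a microsomal HSP70, had levels of 0.84 and 2.06 in HK-2 and 1.49 and 1.07 in RPTEC/TERT1. Its 2 highest arrays were a crossed pair, unlike those of HSPA5.

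HSP90B1 (endoplasmin, the ER HSP90) was lower on both HK-2 arrays than on both RPTEC/TERT1 arrays by both its probes. Probe A_23_P2601 (chr12:104341536-104341595) had levels of 6.11 and 5.46 in HK-2 and 6.83 and 6.39 in RPTEC/TERT1. The means were 5.78 ± 0.46 and 6.61 ± 0.31 (SD, n = 2 each), and the difference of -0.83 ± 0.52 (SE) was not past the threshold (limma adjusted p = 1). Probe A_33_P3408212 had levels of 1.27 and 1.22 in HK-2 and 1.49 and 2.01 in RPTEC/TERT1, a difference of -0.50 ± 0.48 (limma adjusted p = 1). Under all alternatives run, the difference stayed negative, from -1.32 to -0.50 for the former probe and from -0.78 to -0.24 for the latter. With an array left out or a block fitted, this sign was fixed in advance, since the arrays of the labelled lines do not overlap. These probes share the arrays and are not independent.

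The ER J-proteins fell into different orders. DNAJB9 (ERdj4), which restrains the stress sensor IRE1, had levels of 1.61 and 1.12 in HK-2 and 0.54 and 2.15 in RPTEC/TERT1. DNAJC3 (p58IPK), a BiP co-chaperone induced by ER stress (chr13:96443238-96443297), had levels of 0.46 and -1.49 in HK-2 and -1.49 and 1.02 in RPTEC/TERT1. DNAJC1 (ERdj1), a membrane J-protein at the translocon, had levels of 1.39 and 0.24 in HK-2 and -0.35 and 1.59 in RPTEC/TERT1 by probe A_23_P127128. RPTEC/TERT1 replicate 2 and HK-2 replicate 1 were the highest arrays for all these, though with normexp DNAJB9 was highest on the arrays of replicate 2. The other DNAJC1 probe, A_33_P3290687, had levels of -0.31 and -0.53 in HK-2 and -1.50 and 0.33 in RPTEC/TERT1, the same highest pair. DNAJC3 also has probe A_33_P3317387, which was not well above background on any array.

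DNAJB11 (ERdj3), a soluble BiP co-chaperone, had levels of 2.54 and 3.19 in HK-2 and 3.00 and 2.80 in RPTEC/TERT1, with the opposite pair highest over a range of 0.65. DNAJC10 (ERdj5), a reductase of misfolded proteins, had levels of 1.95 and 1.88 in HK-2 and 2.16 and 2.23 in RPTEC/TERT1 by probe A_24_P225604, with a difference of -0.28 ± 0.45 (SE). Its other probe A_23_P319133 had levels of 2.63 and 2.89 in HK-2 and 2.61 and 2.63 in RPTEC/TERT1, where the labelled lines overlapped. DNAJB14, an ER membrane J-protein, had the smallest range among the chaperone probes well above background on all arrays, with levels of 0.10 and 0.14 in HK-2 and 0.06 and 0.21 in RPTEC/TERT1. By compartment, RPTEC/TERT1 replicate 2 and HK-2 replicate 1 were highest for 6 of the 15 ER probes and RPTEC/TERT1 replicate 1 and HK-2 replicate 2 for 2, and the 2 RPTEC/TERT1 arrays for 3. Over all probes well above background on all arrays, these shares were 40.4%, 30.9% and 2.75%. The 3 probes are both HSP90B1 probes and DNAJC10 A_24_P225604, so they are not 3 separate genes.

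The mitochondrial members gave 12 probes of 8 genes. HSPD1 (HSP60) and HSPE1 (HSP10) form the chaperonin of the matrix, and their genes are neighbours that run in opposite directions from a shared promoter (probes at chr2:198351381-198351440 and chr2:198367803-198367942). HSPD1 had levels of 4.97 and 6.32 in HK-2 and 6.11 and 5.31 in RPTEC/TERT1. HSPE1 had levels of 5.47 and 6.33 in HK-2 and 6.05 and 5.74 in RPTEC/TERT1 by probe A_23_P56922, and of 4.38 and 6.03 in HK-2 and 5.22 and 4.68 in RPTEC/TERT1 by probe A_33_P3325306. All 3 chaperonin probes were highest on RPTEC/TERT1 replicate 1 and HK-2 replicate 2 and lowest on HK-2 replicate 1, also with normexp, quantile normalization and the deposited values. The HSPD1 spot and that of HSPE1 A_23_P56922 were saturated on HK-2 replicate 2, so the level there is a lower bound.

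HSPA9 (mortalin), the matrix HSP70 that takes up imported proteins, did not follow the chaperonin. It had levels of 2.65 and 2.53 in HK-2 and 2.43 and 2.55 in RPTEC/TERT1, a range of 0.23. DNAJA3 (TID1), its J-protein partner, had levels of 1.91 and 1.63 in HK-2 and 2.41 and 1.67 in RPTEC/TERT1 and was highest on the arrays of replicate 1. DNAJC19, a J-protein of the import motor, had levels of 1.34 and 2.58 in HK-2 and 2.24 and 1.59 in RPTEC/TERT1 by probe A_33_P3362869, the order of the chaperonin. Its other probe A_23_P121396 had levels of -1.74 and -1.16 in HK-2 and -1.46 and -1.49 in RPTEC/TERT1, with HK-2 replicate 2 highest and the RPTEC/TERT1 arrays nearly level.

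DNAJC15 (MCJ), a J-protein of the inner membrane that restrains complex I and whose gene is silenced in some tumours, was detected on some arrays and at the floor on others (chr13:43683245-43683304). It was well above background on RPTEC/TERT1 replicate 2 and HK-2 replicate 1, at levels of 0.60 and 0.21, and at the floor on RPTEC/TERT1 replicate 1 and HK-2 replicate 2. The processed signals were 649 and 455 against -1.07 and 3.18. The detected arrays were at least 62.6-fold and at least 47.9-fold higher than the arrays at the floor. DNAJC30, which binds ATP synthase in neurons, split in the same way by probe A_23_P157170, with levels of 0.79 and -1.55 in HK-2 and -1.68 and 0.80 in RPTEC/TERT1 (chr7:73096870-73096929). Its other probe A_24_P218006 did not, with levels of -1.48 and -1.38 in HK-2 and -0.79 and -1.76 in RPTEC/TERT1. DNAJC11, of the cristae complex, had a range of 0.27 by probe A_23_P103942. Its other probe A_33_P3241108 was dim and had a range of 2.16. That probe was well above background only on RPTEC/TERT1 replicate 1 and HK-2 replicate 2, at levels of -2.82 and -4.64. In all, RPTEC/TERT1 replicate 1 and HK-2 replicate 2 were highest for 7 of the 10 mitochondrial probes well above background on all arrays, and RPTEC/TERT1 replicate 2 and HK-2 replicate 1 for 2. Over all such probes these shares were 30.9% and 40.4%. The 7 include all 3 chaperonin probes and both DNAJC19 probes, so they are not 7 separate genes.

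Of the remaining J-proteins, DNAJC9, a nuclear histone chaperone (chr10:75002674-75002733), had the largest range among probes well above background on all arrays. Its levels were 1.02 and 4.32 in HK-2 and 3.56 and 1.17 in RPTEC/TERT1. HK-2 replicate 2 was 9.85-fold above HK-2 replicate 1, and the labelled lines differed by 0.30 ± 1.45 (SE).

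DNAJA1, the main cytosolic J-protein of class A, had levels of 3.50 and 2.65 in HK-2 and 2.61 and 3.45 in RPTEC/TERT1. RPTEC/TERT1 replicate 2 and HK-2 replicate 1 were highest, and so they were for its pseudogene DNAJA1P5, with levels of 3.74 and 2.93 in HK-2 and 2.46 and 3.89 in RPTEC/TERT1. With normexp the arrays of replicate 2 were highest for both. DNAJB1 (HSP40), the inducible partner of HSPA1A, had the opposite pair highest, with levels of 1.68 and 2.46 in HK-2 and 2.21 and 1.68 in RPTEC/TERT1. DNAJB4 had levels of -2.19 and -2.19 in HK-2 and -2.20 and -2.59 in RPTEC/TERT1 and lay apart on RPTEC/TERT1 replicate 2 alone. DNAJC2, a ribosome-bound J-protein, had levels of 1.50 and 2.79 in HK-2 and 2.08 and 1.59 in RPTEC/TERT1. DNAJC22 was well above background on RPTEC/TERT1 replicate 1 and HK-2 replicate 2 only, where it was at least 4.23-fold to at least 6.20-fold higher than on the other arrays.

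By family, RPTEC/TERT1 replicate 2 and HK-2 replicate 1 were highest for 13 of 30 DNAJC probes and 7 of 14 DNAJB probes well above background on all arrays, and for none of 7 HSP90 and none of 3 chaperonin probes. RPTEC/TERT1 replicate 1 and HK-2 replicate 2 were highest for 7 DNAJC, 4 DNAJB, 4 HSP90 and 3 chaperonin probes, and for 4 of 15 HSP70 and HSP110 probes, as many as for the opposite pair. Over all such probes the former pair was highest for 40.4% and the latter for 30.9%. The HSP70 and HSP110 tie became 3 against 7 with normexp, 3 against 6 with quantile normalization and 4 against 6 with the deposited values. For DNAJB the counts were 4 and 4 with normexp. These are counts over probes that share the 4 arrays, and a difference between families was not tested. Where a gene had more than 1 probe well above background on all arrays (17 genes), the probes shared the highest pair of arrays in 9 genes and differed in 8. HSP90AA1, HSPA4, HSPA6, DNAJB6, DNAJC5, DNAJC10, DNAJB5 and DNAJC30 were the latter.

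The design compares the labelled cell lines under the same stimulation. No chaperone probe passed the threshold between HK-2 and RPTEC/TERT1 (limma, adjusted p below 0.05 over 21118 probes), 0 of 89 tested, beside a background of 0%. At an unadjusted p below 0.05 there were 0 of 89 chaperone probes and 26 of all probes (0.123%). The difference, HK-2 minus RPTEC/TERT1, had a median of -0.00029 over the chaperone probes, with 43 above 0 and 46 below, against 0.02 over all probes tested. The median SE was 0.57. Over the 80 probes well above background on all arrays the difference ran from -0.83 for HSP90B1 A_23_P2601 to 0.48 for DNAJA2. With such an SE a difference of the size seen here was not detectable, and the lack of calls does not show that the lines are alike.

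The labelled lines did not overlap for 8 of the 88 chaperone probes with all values (9.09%), beside 6.86% of 20806 probes. Both HK-2 arrays were above both RPTEC/TERT1 arrays for 5 (5.68%, background 3.98%), and below for 3 (3.41%, background 2.87%). The former were DNAJA2, a constitutive class A J-protein, at 0.48 ± 0.48, HSPH1 A_33_P3348752 at 0.37 ± 0.46, HSPA4 A_24_P377277 at 0.24 ± 0.46, DNAJB4 at 0.21 ± 0.46 and DNAJC25 at 0.18 ± 0.45 (difference ± SE). With normexp background correction the differences of HSPH1 and HSPA4 turned to -0.047 and -0.15. The latter were both HSP90B1 probes and DNAJC10 A_24_P225604. All of these had a limma adjusted p of 1.

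Within replicate 1 the median difference between the labelled lines was 0.02 over the chaperone probes, with 48 of 89 higher in HK-2, and within replicate 2 it was -0.03, with 40 of 88 higher. The sign of a probe's difference was opposite in the replicates for 72 of the 88 chaperone probes with a value on all arrays and for 17717 of 20806 such probes in all. The sign was thus opposite for most chaperone probes, as for most of all such probes, and this is no result about the chaperones. Both HSP90B1 probes kept their sign, which follows from labelled arrays that do not overlap and is no further evidence.

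**Figure D4:**
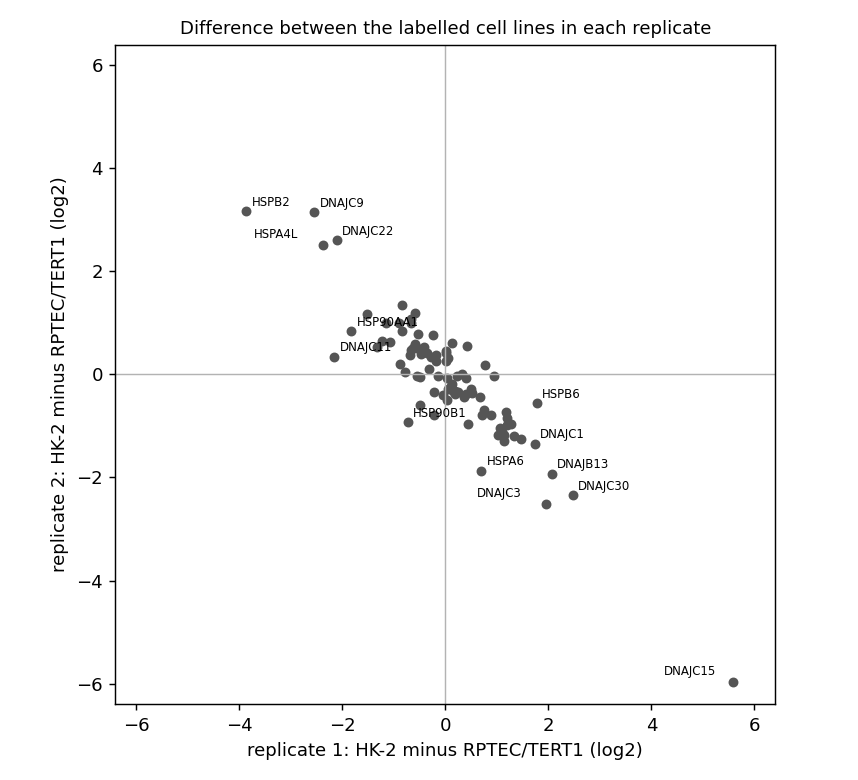
Difference in level between the array labelled HK-2 and that labelled RPTEC/TERT1, within replicate 1 (x axis) and within replicate 2 (y axis), in log2 units, for the chaperone probes tested with a value on all arrays (points). Most points lie in the upper left and lower right, where the sign is opposite. HSPB2, DNAJC9 and HSPA4L lie at one end and DNAJC15, at the floor on 2 arrays, at the other. HSP90B1 A_23_P2601 is negative in both, which follows from labelled arrays that do not overlap.

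Genes that work with these chaperones were read from the same fit, and none of their probes passed the threshold. All 8 genes of TRiC, the cytosolic chaperonin for actin and tubulin, were well above background on all arrays, and 10 of their 11 probes were highest on RPTEC/TERT1 replicate 1 and HK-2 replicate 2, the highest pair of HSPD1 and HSPE1 too. Their lowest array varied, being HK-2 replicate 1 for 5 of the 11 and RPTEC/TERT1 replicate 2 for 5. All 17 cytosolic co-chaperones were well above background on all arrays, and of 28 probes 13 were highest on RPTEC/TERT1 replicate 2 and HK-2 replicate 1 and 7 on the opposite pair. Over all probes well above background on all arrays, RPTEC/TERT1 replicate 2 and HK-2 replicate 1 were highest for 40.4%. The opposite pair, that of TRiC, was highest for 30.9%. BAG3, a stress-induced exchange factor, had levels of -1.32 and -0.46 in HK-2 and -0.89 and -1.15 in RPTEC/TERT1. All 4 heat shock factor genes listed were well above background on all arrays, and HSF1 had levels of 3.79 and 3.78 in HK-2 and 3.50 and 4.01 in RPTEC/TERT1 by probe A_23_P253841. Its range was 0.51 by this probe and 0.85 by probe A_33_P3347932. A further HSF1 probe, A_33_P3347937, was not well above background on any array.

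Of 22 genes of ER folding and the unfolded protein response, 19 were well above background on all arrays. XBP1, a transcription factor of that response, had levels of 3.53 and 3.85 in HK-2 and 3.46 and 4.24 in RPTEC/TERT1, highest on the arrays of replicate 2 as was HSPA5. HYOU1, the ER HSP110, had levels of -1.78 and -2.42 in HK-2 and -2.17 and -1.86 in RPTEC/TERT1, and DDIT3 (CHOP), a late factor of ER stress, had levels of -1.28 and -0.03 in HK-2 and -0.47 and -0.71 in RPTEC/TERT1. These genes of the same response did not share an order over the arrays. All 10 mitochondrial genes listed were well above background on all arrays, and TRAP1, the mitochondrial HSP90, had levels of -1.48 and -0.50 in HK-2 and -0.10 and -1.59 in RPTEC/TERT1, with the same highest pair of arrays as the chaperonin.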

How the data were processed

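RNA of HPTCs under IL-1β and Empa carried Cy3 and was measured on Agilent arrays of 1 colour, 2 for each labelled cell line. The labels and the methods name different RNA kits. The authors deposited spot intensities on a linear scale from Agilent Feature Extraction 9.5.3.1, background-subtracted and not scaled between arrays. A table of log2 values per spot was deposited too, whose scale and centring are not given in the sources used here (medians 8.31, 7.04, 6.67 and 6.65 in the order of the arrays). They ranked like the intensities (Spearman 0.992 to 0.995) and served as an alternative.

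Control and outlier spots were left out. Each intensity was scaled by its array's 75th percentile, floored at 0.0242 of it and taken to log2, and spots of a probe were averaged. A probe was well above background where at least 50% of its spots were. The 21118 probes that passed on 2 or more of the 4 arrays were compared between the labelled lines with limma 3.58.1 (lmFit and eBayes, R 4.3.3), with Benjamini-Hochberg adjustment at 0.05, after the step was tested on simulated data. Bounds set the bright array against the floor or the dim spot. Gene names are those of the design, and 78 of 79 are RefSeq symbols. Probe positions are on GRCh37, per the file headers.

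Named with values on all arrays were fixed genes of each family and compartment, the 8 largest and 4 smallest ranges, up to 5 non-overlapping probes in each direction and saturated probes. HSPA2, HSPA14, DNAJC2, DNAJC22, HSPB2, HSPB6 and DNAJA1P5 were added after their values were seen. Members and lists were chosen with earlier results of these data known. Arrays of the same number correlated at -0.795 in their deviations from the means of the labelled lines, so the numbers were not taken to pair the arrays, and the block stands among the alternatives. Each array was on its own slide, so a slide effect and an array effect cannot be told apart. Alternatives were normexp (offset 50), quantile normalization, the deposited values, outliers kept, other filters, gene means, blocks and leaving out each array. Protein features were not examined here.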

Additional observations from a re-analysis of the deposited data

How the results depend on the processing

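No chaperone probe was called under any alternative run, and no other probe either. At an unadjusted p below 0.05, the count over all probes was 26, and 5 to 309 under the alternatives that kept all arrays and 17 to 142 with an array left out. Among chaperone probes it was 0, except 1 without a filter on dim probes and 1 when either RPTEC/TERT1 array was left out. The median difference of the chaperone probes, -0.00029, became -0.17 with normexp and 0.039 with the deposited log2 values, where the median of all probes moved from 0.02 to 0.36 and to 0.20. With an array left out it lay between -0.060 and 0.028, the lowest without RPTEC/TERT1 replicate 1. Arrays of the same label differed more than the crossed pairs by 0.301 in median absolute difference, and by 0.208 with normexp, 0.431 with quantile normalization, 0.225 without a filter, and 0.210 to 0.369 with an array left out, the lowest without HK-2 replicate 1 and the highest without RPTEC/TERT1 replicate 1. With normexp the difference turned to -0.15 for HSPA4 A_24_P377277 and to -0.047 for HSPH1 A_33_P3348752. The cause of these shifts was not tested. Of 48 named probes tested, 20 changed the sign of the difference under an alternative with all arrays and 35 with an array left out. With the replicate number as a block the median difference was -0.00025, with 5 of all probes below an unadjusted p of 0.05, and it changed no call. Same-numbered arrays correlated at -0.795 in their deviations, and a crossed pairing, chosen after seeing the data, gave 0 calls and 192 probes below an unadjusted p of 0.05. With 2 arrays a label and a median SE of 0.57, small differences were not detectable, and the saturated or floored spots limit HSP90AA1, HSPD1, HSPE1 and DNAJC15.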
